A study of Mus musculus with 24 samples.

Results

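This account describes the H3K27ac peaks of Meckel's cartilage that no forelimb peak overlaps: 2877 regions covering 19.0 Mb. They were chosen by their H3K27ac values. A member is a peak of the combined Meckel's cartilage (MC) list on the autosomes or X that shares no base with any peak of the combined forelimb (FL) list. Its total signal (the signal summed over the peak) also had to reach 25799, the lowest total signal of any FL peak. Members made up 6.05% of the 47549 MC peaks and 4.66% of the bases those peaks cover. They are called MC-alone peaks below.

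All embryos were wild-type C57BL/6 mice. H3K27ac was profiled at embryonic stage E14.5 by CUT&Tag (antibody-guided cutting of chromatin by a tethered transposase), with 3 libraries from MC and 3 from FL. ATAC-seq, in which a transposase cuts open chromatin, was done on 3 MC and 3 FL libraries of E14.5 and on 2 libraries of mandible at E12.5. MC was taken as dissected cartilage bars and FL as forelimb cartilage freed of surrounding connective tissue. The labels do not say whether replicates came from separate animals or litters, so p-values measure only the spread between these libraries, which may be technical. The tissues were measured in bulk: fewer cells with an acetylated region and less acetylation per cell cannot be told apart.

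H3K27ac is an acetylated residue of histone H3 that marks active promoters and enhancers, and broad stretches of it are typical of genes that set cell identity. Meckel's cartilage is the rod of the embryonic lower jaw and forms from cranial neural crest, which carries no Hox code in the first pharyngeal arch. Forelimb cartilage forms from lateral plate mesoderm under a Hox code. Both are made of chondrocytes.

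Some MC-alone peaks cover the start sites of regulators of the jaw, and 6 of these promoters are shown because the results return to their genes. Msx1, Msx2, Dlx2 and Lhx8 encode homeobox factors of the first arch, Meis2 encodes a TALE homeobox factor, and Irx2 an Iroquois factor. Each sequence holds the 250 bases before a listed start, 5′ to 3′ on the gene's strand, from RefSeq on GRCm38.p6 (mm10). For Meis2 and Irx2 the start used lies inside the gene's span and not at its outer end. Capitals mark TAATTA (a homeobox core), TATAAA (the TATA box), GGGCGG (the GC box) and CCAAT (the CCAAT box), read on both strands.
Msx1 (chr5:37824586-37824835, minus strand): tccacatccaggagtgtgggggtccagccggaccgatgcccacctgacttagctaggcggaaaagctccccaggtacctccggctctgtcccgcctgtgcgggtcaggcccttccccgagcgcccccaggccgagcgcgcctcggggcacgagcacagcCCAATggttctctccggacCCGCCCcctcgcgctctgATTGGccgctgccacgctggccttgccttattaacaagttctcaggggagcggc
Msx2 (chr13:53472781-53473030, minus strand): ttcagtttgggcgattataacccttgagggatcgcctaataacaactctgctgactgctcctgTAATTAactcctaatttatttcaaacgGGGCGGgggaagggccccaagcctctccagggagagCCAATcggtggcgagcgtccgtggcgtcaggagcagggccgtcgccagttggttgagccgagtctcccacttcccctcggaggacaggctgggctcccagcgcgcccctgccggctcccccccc
Dlx2 (chr2:71546755-71547004, minus strand): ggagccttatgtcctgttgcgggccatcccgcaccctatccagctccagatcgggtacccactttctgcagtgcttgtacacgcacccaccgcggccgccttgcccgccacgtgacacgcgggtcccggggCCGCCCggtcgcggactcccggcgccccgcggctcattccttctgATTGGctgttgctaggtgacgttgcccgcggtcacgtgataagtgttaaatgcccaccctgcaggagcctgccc
Lhx8 (chr3:154330561-154330810, minus strand): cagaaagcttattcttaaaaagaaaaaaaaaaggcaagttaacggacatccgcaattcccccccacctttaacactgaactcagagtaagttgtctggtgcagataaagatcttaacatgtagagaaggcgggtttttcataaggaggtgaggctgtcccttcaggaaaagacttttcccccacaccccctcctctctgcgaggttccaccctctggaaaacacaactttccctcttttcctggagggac
Meis2 (chr2:116064620-116064869, minus strand): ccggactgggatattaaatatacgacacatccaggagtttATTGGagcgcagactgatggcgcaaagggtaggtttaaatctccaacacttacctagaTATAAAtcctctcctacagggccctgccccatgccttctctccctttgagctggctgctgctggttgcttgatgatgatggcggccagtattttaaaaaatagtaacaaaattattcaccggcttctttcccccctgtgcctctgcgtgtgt
Irx2 (chr13:72628570-72628819, plus strand): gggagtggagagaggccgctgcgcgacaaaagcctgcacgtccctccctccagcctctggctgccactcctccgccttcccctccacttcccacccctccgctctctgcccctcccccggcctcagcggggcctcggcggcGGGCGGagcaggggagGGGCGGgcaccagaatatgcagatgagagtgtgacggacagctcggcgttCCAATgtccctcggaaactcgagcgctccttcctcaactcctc
TAATTA was found in the Msx2 promoter and in none of the other 5. Of all 32619 listed promoters on these chromosomes, 4.8% held TAATTA, 12.4% TATAAA, 33.0% GGGCGG and 34.0% CCAAT. Of the 708 promoters whose start lies in an MC-alone peak, 3.53% held TAATTA, 7.49% TATAAA, 47.6% GGGCGG and 33.1% CCAAT. A further motif, TGACAG (a core bound by MEIS factors), was found in 13% of these 708 and in 15.6% of all. In promoters of shared peaks TATAAA stood at 6.53%, the GC box at 50.6% and TAATTA at 2.45%. The MC-alone shares of these 3 motifs were nearer to those of shared peaks than to those of all promoters, while the CCAAT share was 32.7% in shared peaks and differed little between the 3 sets. The Msx1, Msx2, Lhx8 and Irx2 windows held an ATAC peak in all 8 ATAC lists. The Dlx2 window held one in every list but that of FL library 1. The Meis2 window held one in all 3 MC lists, in FL library 1 alone of the FL lists and in E12.5 library 2 alone of the E12.5 lists.

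The 2 combined lists and the 6 single-library lists did not hold the same regions. Per Mb of MC-alone peak, the single MC lists covered 9.63, 13.4 and 12.6 kb, and the single FL lists 12, 10.6 and 9.16 kb. The values of the tissues overlap. The difference between tissues that defines MC-alone peaks thus rests on the combined lists, which have no replicates, and no error can be given for it. The other 36403 MC peaks that overlap an FL peak (shared peaks) had a single-library peak no more than 18.6% of the time in any list.

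MC-alone peaks were near shared peaks in median width but spread less, and they were not strong. Their median width was 6094 bp, with 80% between 4409 and 9489 bp. Shared peaks had a median of 6466 bp, with 80% between 3537 and 19241 bp. The median total signal was 31936 against 40701 in shared peaks. Shared peaks did not have to reach the threshold (lowest total signal 16925, lower quartile 25245.5), so the 2 sets are not cut alike. The lowest member had a total signal of 25800 and the next 25803, while the strongest MC peaks just outside the threshold had 25796 and 25793. Within 10% above the threshold lay 784 members, or 27.3%, and 244 members had at least 2 times the threshold. A peak in MC alone was rarely broad. Of MC peaks at or above the threshold, 14.3% of those under 5 kb were members, 14.0% of those of 5 to 10 kb, 2.99% of those of 10 to 20 kb and 4 of 3362 of 20 kb or more. FL peaks that overlap no MC peak were also rarely broad, with 22.5%, 32.9%, 6.97% and 0.337% of FL peaks in the same bins. A wider peak meets the rule of no shared base less easily, and how far this sets the shares was not tested.

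The widest and strongest was a 43.6 kb peak inside Meis1 (chr11:18924094-18967690; total signal 294523), which encodes a TALE homeobox partner of PBX and HOX proteins. A 24.8 kb peak (chr2:115872179-115896968; total signal 141645) lay near the 3′ end of Meis2, and an 18.8 kb peak (chr2:116048799-116067590; total signal 159460) covered its start. Among the 10 widest were also peaks in the domains of Kdm2a (21.7 kb), Stx18 (20.1 kb), Sorl1 (19.7 kb), Pde11a (18.3 kb) and Ncoa2 (17.6 kb). Narrower peaks of 16.8 kb and 16.4 kb, among the 10 strongest by total signal, covered the whole of Msx1 (chr5:37815891-37832707; total signal 120181) and Msx2 (chr13:53461424-53477853; total signal 107568). The Msx1 peak was 14.1 kb and the Msx2 peak 17.3 kb from the nearest FL peak, whereas the peak at the Meis2 start was 267 kb from one.

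MC-alone peaks usually had an FL peak close by. The median gap to the nearest FL peak was 6675 bp; 393 members (13.7%) lay within 1 kb of one and 1231 (42.8%) within 5 kb. Far from any FL peak, by over 100 kb, lay 150 members (5.21%), and 13 were over 500 kb away. The farthest covered Sat1, a polyamine-catabolic enzyme gene on chromosome X (chrX:155215452-155219935), 1713 kb from an FL peak. All 3 MC, all 3 FL and both E12.5 ATAC lists had a peak in it.

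**Figure D1:**
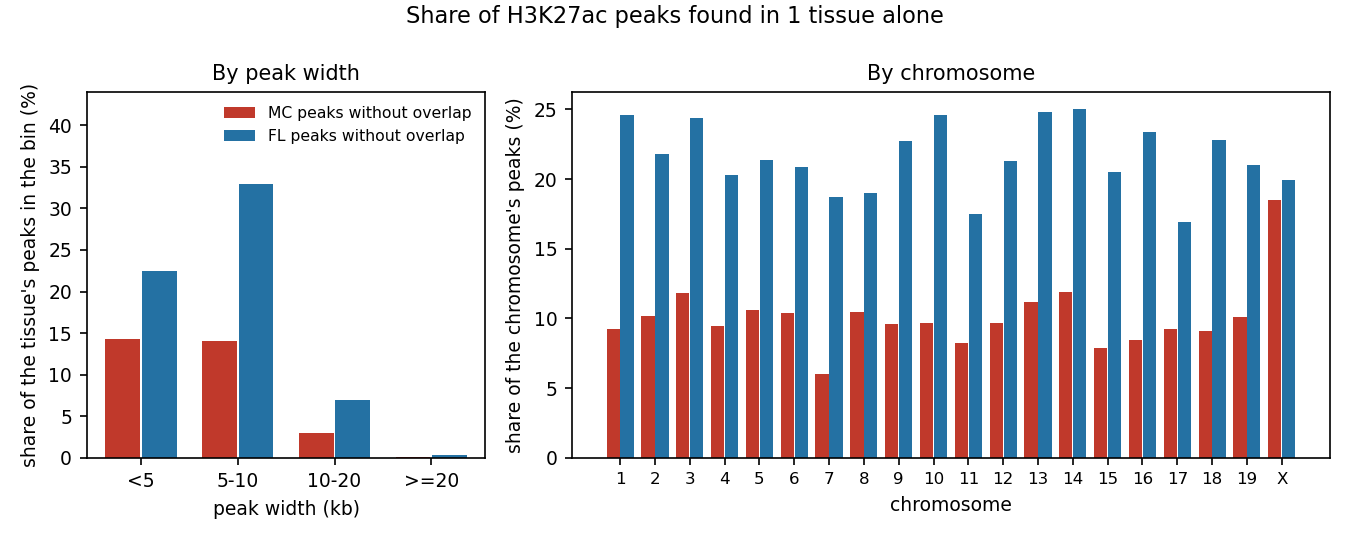
Left, share of H3K27ac peaks in each width bin (kb) that were found in 1 tissue alone: MC peaks at or above the threshold in red, FL peaks in blue. Right, the same share by chromosome; MC-alone peaks reached 18.5% on X and 6.03% to 11.9% on the autosomes.

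Chromosome X held more MC-alone peaks for its size of list. They were 54 of 292 MC peaks at or above the threshold there (18.5%), whereas the autosomes ranged from 6.03% to 11.9%. FL peaks that overlap no MC peak (FL-alone peaks) showed no such step, with 19.9% on X and 16.9% to 25% on the autosomes. Of the 54 X-linked members, 32 lay within 1 kb of a gene end, 40 held a peak of the combined MC ATAC list and 41 one of the combined FL ATAC list. One of them covered the start of Hprt, a purine salvage enzyme gene often used as a reference gene.

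Of the 2877 members, 648 (22.5%) lay within 1 kb of an end of a protein-coding gene, against 33.0% of shared peaks and 10.7% of FL-alone peaks. A listed transcription start lay in 537 (18.7%), against 27% and 7.56%. Start sites on chromosome 18 and some other stretches are not in the table used, so these shares of starts are lower bounds. MC-alone promoters had a median GC content of 58.0% and a median ratio of observed to expected CpG of 0.605. The medians were 58.8% and 0.653 for promoters in shared peaks, 49.6% and 0.244 for those in FL-alone peaks, and 52.4% and 0.378 for all promoters. Promoters in MC-alone peaks were thus nearer in composition to those in shared peaks than to those in FL-alone peaks, a comparison of medians with no test.

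Each base of a member was given to its nearest protein-coding gene within 1 Mb, and that gene's stretch is called its domain. Under this rule 2258 genes had a member, which is 10.4% of the 21627 genes. A single member was found for 1772 of them, and 37 had 5 or more. For 262 of them no FL peak lay in the domain. Genes with a member had long domains (median 137 kb against 44.2 kb for all genes), so a count of genes favours those with much surrounding sequence. Gene lists were therefore also read by the share of their MC H3K27ac bases that lay in members, 4.66% over all genes. The rule chose the members by H3K27ac, so these counts are a description and no list was tested.

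The list of mandibular arch and cranial neural crest genes had 22 of 44 genes with a member, and 36.3% of its 1466 kb of MC H3K27ac lay in members. Msx1 had 4 members with 40.2 kb out of 53.3 kb in its domain, and Msx2 had 5 with 49.1 kb out of 80.0 kb. Among the Dlx genes, which set upper and lower jaw identity along the arch, Dlx2 had 16.5 kb, Dlx6 15.9 kb and Dlx1 10.3 kb in 2 members each, and Dlx3 also had 2. All MC acetylation in the Dlx1 domain was in members. Pitx1, a homeobox gene of the lower jaw and hindlimb, had 2 members with 17.1 kb of its 22.7 kb, and Lhx8 had 16.1 kb of 18.4 kb. FL-alone peaks covered 13.6 kb at Pitx1 and 4.67 kb at Lhx8, while Msx1 and Msx2 had none. Edn1, the endothelin ligand that specifies the lower jaw, had 1 member of 6.7 kb, which was all of its MC acetylation, 126 kb from the nearest FL peak. FL-alone peaks were found in the domains of 9 of the same 44 genes (20.5%), near the 22.6% of all genes.

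The Iroquois, Meis and Pbx list, all TALE homeobox genes, had 9 of 13 genes with a member and 38.8% of its 965 kb in members. Meis2 had 13 members with 129 kb of 146 kb and Meis1 had 7 with 108 kb of 176 kb, more than any other gene in the combined lists. The single-library H3K27ac lists ran the other way there. Of the 13 at Meis2, 0, 1 and 2 had a peak in the MC lists and 4, 5 and 3 in the FL lists, which do not overlap. Of the 7 at Meis1, 2, 0 and 2 had one in the MC lists and 3, 2 and 3 in the FL lists. Pbx3 had 4 members with 37.0 kb, Irx3 had 5 with 35.8 kb, and Irx5 had 2 with 14.2 kb. Irx2 had 2 members with 11.8 kb and a median gap of 338 kb to the nearest FL peak. Meis2 is counted in both the arch and this list.

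The cartilage list had 7 of 26 genes with a member, and 9.03% of its 1968 kb in members. The matrix genes Col2a1, Acan, Matn1, Col9a1 and Col11a2 had MC and FL peaks but no member. Other matrix genes had members, with 14.3 kb in 2 at the collagen gene Col11a1 and 11.5 kb in 2 at the link protein gene Hapln1. Cytl1, also on the list, had 11.7 kb in 1, which belongs to the cluster of members at Msx1 described below. Among regulators, Sox5 had 8 with 54.2 kb, Sox6 had 7 with 39.8 kb and Sox9, the master regulator of chondrocytes, had 5 with 31.4 kb. These SOX genes also had large FL cover in their domains (397, 297 and 119 kb), so members there were a small share of a heavily acetylated domain (10.7%, 13.2% and 19.8%). Nkx3-2, which acts in the jaw joint and in early chondrocytes, had 2 members with 14.6 kb of 22.6 kb.

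The signalling lists lay on both sides of the 4.66% over all genes. Members held 7.24% of the bases of the BMP and GDF list, 6.06% of the Wnt list, 3.78% of the TGF-beta list, 3.71% of the Notch list, 3.44% of the FGF list, 3.24% of the retinoic acid list and 1.49% of the Hedgehog list. Among BMP genes, the receptor gene Bmpr1b had 5 members with 29.7 kb, the extracellular modulator Bmper had 3 with 26.4 kb, and the ligand gene Gdf10 had 2 with 15.8 kb. Among Wnt genes the receptor Ror1 had 7 members with 38.2 kb, and the secreted inhibitor Wif1 had 3 with 18.4 kb, which was all of its MC cover. The 15.3 kb of FL cover at Wif1 likewise lay all in 2 FL-alone peaks. Of the Hedgehog genes Gli3, the transcriptional effector, had 2 members with 11.3 kb and Hhip, a membrane-bound antagonist, had 2 with 9.31 kb. FL-alone peaks covered 34 kb at Gli3 and 5.81 kb at Hhip. Among guidance genes, the receptor Robo1 had 4 members with 29.3 kb and the ephrin gene Efna5 had 4 with 34.0 kb.

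None of the 39 Hox genes had a member, since none had an MC peak in its domain. Limb patterning genes other than Hox had 8 of 27 with a member (29.6%, against 10.4% of all genes). FL-alone peaks were found at 20 of the 27 (74.1%, against 22.6% of all genes). Irx3, Irx5 and En1 were among the 8 with a member. The hypertrophy and osteoblast list had 6 of 24 genes with a member and 12.9% of its bases in them. Runx2, the osteoblast regulator, had 2 members with 21.8 kb. The tendon and fibroblast list had 1 of 22 with a member, Dcn (4.55%), the forkhead list 6 of 21 (28.6%) and the reference gene list 4 of 18 (22.2%). Members held 0.585%, 8.35% and 9.73% of the bases of these lists, in that order.

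Markers of other cell types that a dissection could hold were looked up in the same way. The neuron list had 8 of 40 genes with a member and 13.8% of its 548 kb in members. The list was also above the share of all genes in FL, where 13 of the 40 genes had FL-alone peaks (32.5%, against 22.6%). These held 289 kb, or 41.9% of the list's FL bases, against 12.6% over all genes. Of 5 defining neuronal markers, Tubb3, Stmn2, Elavl3 and Elavl4 had an MC peak and none had an FL peak, with 25.1 kb and 0 kb in all; Isl1 had none in either. A member covered 6.77 kb at Elavl3 and none lay at the others. The 2 lists are not cut alike for these and the other markers. MC peaks reached down to a total signal of 16925 and FL peaks only to 25799, so weak peaks could be listed in MC alone. The part of neuronal cells in the MC-alone peaks was not tested. Over all genes, 10.4% had a member. The Schwann cell list had 5 of 21 (23.8%), the blood list 3 of 22 (13.6%) and the skeletal muscle list 2 of 28 (7.14%). The endothelium list had 1 of 24 (4.17%) and the epithelium list 0 of 28. Members held 5.82%, 4.75%, 5.85%, 0.374% and 0% of the bases of these lists, in that order, against 4.66% over all genes. Defining markers of Schwann cells, muscle, epithelium and endothelium had no member. Of those of blood, Klf1, which encodes an erythroid factor, had 1 member and no FL peak. The chondrocyte markers had peaks in both lists (6 of 6), the limb markers in 5 of 5 in FL and 1 of 5 in MC, and the jaw markers in 5 of 5 in MC and 3 of 5 in FL.

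**Figure D2:**
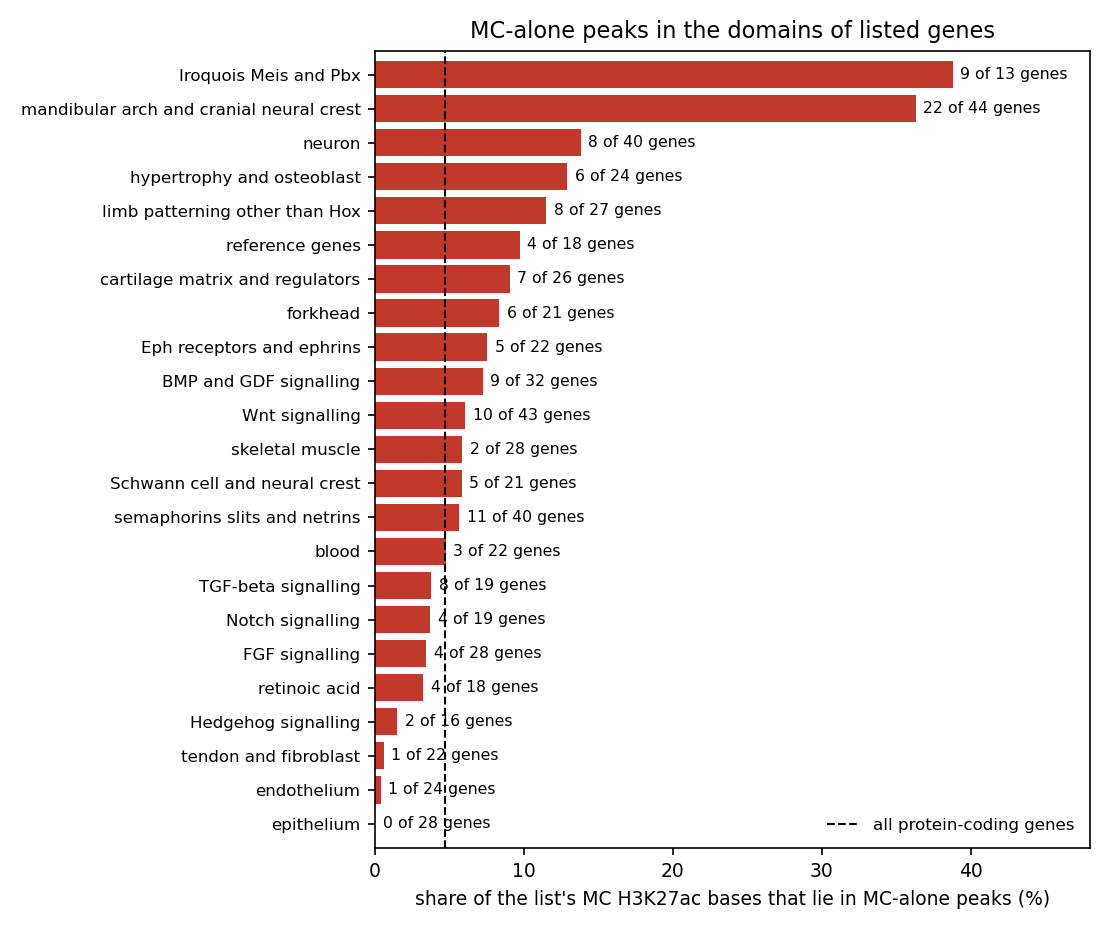
Share of each gene list's MC H3K27ac bases that lay in MC-alone peaks (%), with the number of its genes that had one; the dashed line is the 4.66% over all protein-coding genes. The Iroquois, Meis and Pbx list (38.8%) and the mandibular arch list (36.3%) lie far to the right of the rest; the Hox list is left out since it had no MC peak.

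By bases in members, the 20 leading genes included Meis2, Meis1, Camta1, Maml3, Auts2, Sox5, Tenm3, Foxp1, Msx2, Usp24, Ptprn2, Gpc6, Npas3, Magi1, Lpp, Samd5, Wwox, Fbxl17 and Tas2r134. The 20 had between 129 kb and 40.4 kb each. Many are long genes, and the share of the domain's MC bases in members separates them. That share was 88.5% at Meis2, 61.5% at Meis1 and 61.3% at Msx2, but 10.7% at Sox5, 11.5% at Lpp, 13.3% at Wwox, 13.7% at Foxp1 and 13.9% at Auts2. FL-alone peaks covered more than members at Wwox (54.5 against 40.7 kb), Ptprn2 (54.4 against 44.2 kb), Lpp (51.9 against 41.9 kb) and Npas3 (51.6 against 42.4 kb). They covered less than members at the rest of the 20, with 51.4 against 56.5 kb at Auts2. Genes with no FL-alone peak included Meis2, Meis1, Msx2 and Samd5. With domains cut at 100 kb, Meis2 had 129 kb and Meis1 102.5 kb, but Msx2 had 25.6 kb, Usp24 9.3 kb and Tas2r134 11.5 kb. Usp24 and Tas2r134 thus had most of their member bases over 100 kb away.

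MC-alone peaks were mostly isolated. Joined within 50 kb with no FL peak between them, 2310 of 2877 (80.3%) stood by themselves, and 141 (4.9%) lay in 38 clusters of 3 or more. The 8639 FL-alone peaks were single in 64.1% of cases and in clusters of 3 or more in 13.3%. The FL-alone set is larger, and how far its number sets these shares was not tested. In the order of MC peaks at or above the threshold, the peak after a member was a member in 543 of 2876 cases (18.9%), and the peak after a shared peak in 8.71%. In the order of FL peaks, the peak after an FL-alone peak was FL-alone in 33.5% of cases, and the peak after any other in 18.4%. The largest FL-alone cluster had 7 peaks.

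The largest MC-alone cluster had 13 peaks and spanned 201 kb over Meis2 (chr2:115872179-116073355). Its peaks had total signals of 31370 to 159460, with a median of 47168. No peak of the combined FL list lay within 90 kb on one side or 861 kb on the other. A cluster of 5 in Meis1 spanned 117 kb (chr11:18874352-18990927), with the nearest peak of the combined FL list 961 kb away on one side and 20.9 kb on the other. A cluster of 5 at Dlx1 and Dlx2 spanned 130 kb (chr2:71469525-71599728), and 1 of 4 at Msx1 spanned 66.4 kb and reached into the domain of Cytl1 (chr5:37766294-37832707). Bmpr1b had a cluster of 5, Npas3 one of 6, and Pbx3, Camta1, Maml3, Chst8, Cdkal1, Btrc and Pde11a one of 4 each.

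**Figure D3:**
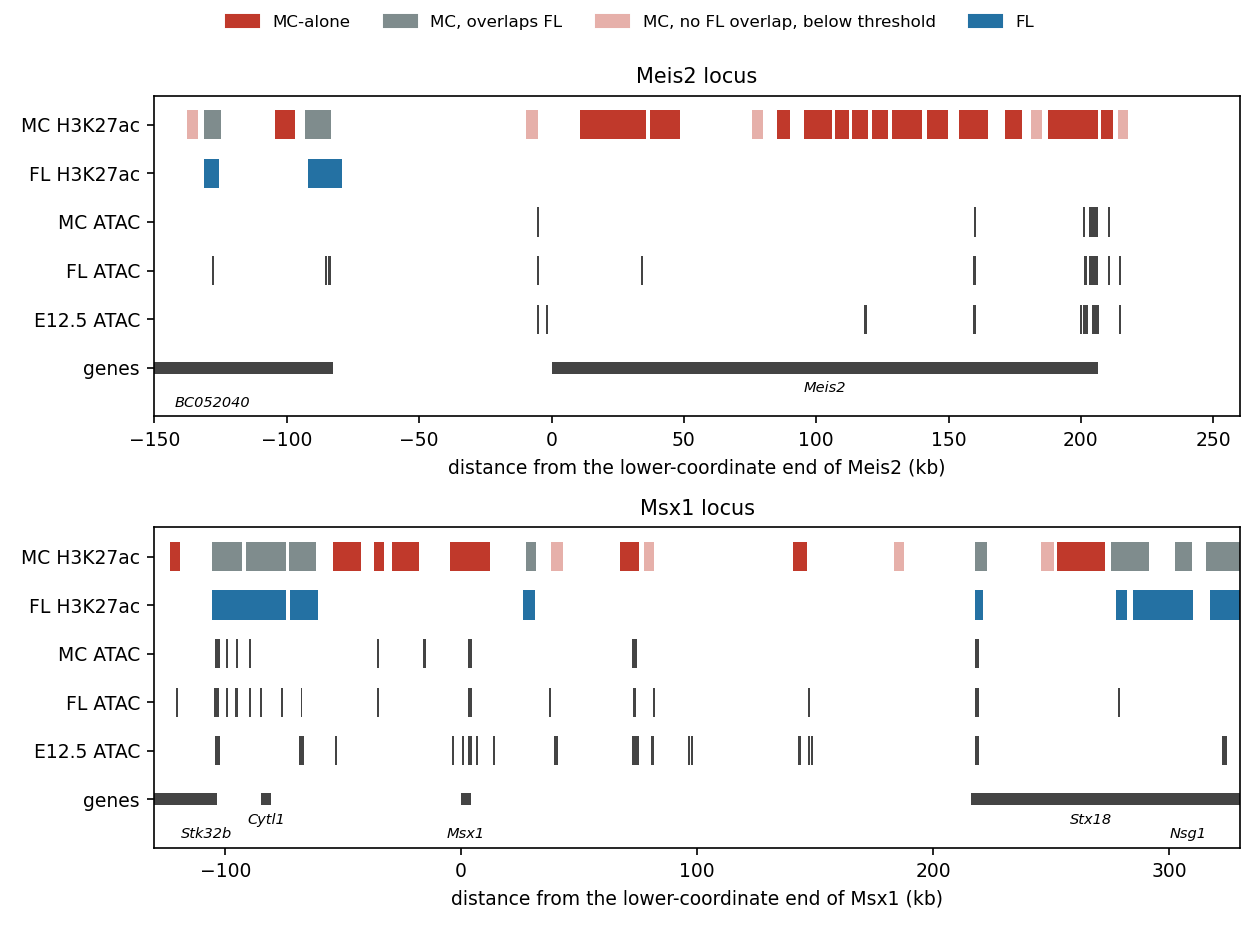
Maps of the Meis2 and Msx1 loci in kb from the lower-coordinate end of each gene: combined MC and FL H3K27ac peaks, combined ATAC peaks of MC, FL and E12.5 mandible (drawn at least 0.8 kb wide) and protein-coding genes. Red MC-alone peaks line Meis2 where the combined FL H3K27ac track is empty, although the single FL lists had peaks in 4, 5 and 3 of the 13 members there, and ATAC peaks at the gene's right end, where it starts, are present in all 3 ATAC tracks.

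ATAC-seq was not used to choose the members, so it can be compared between tissues. In MC-alone peaks the openness of the MC libraries lay within the range of the FL libraries. A peak was called in 40.9%, 37.7% and 41.5% of them in the 3 MC lists, and in 41.2%, 50.9% and 37.6% in the 3 FL lists. The lowest and the highest share were both FL. The means were 40% ± 2.04 (SD, n = 3) and 43.2% ± 6.84 (SD, n = 3). Shared peaks were open more often in every list, in 52.1%, 49.3% and 51.2% for MC and 53.6%, 59.5% and 49.6% for FL.

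Taken against the shared peaks of the same list, MC-alone peaks stood 10.8 ± 1.0 percentage points lower in MC (−11.19, −11.64 and −9.72; SD, n = 3) and 11 ± 2.03 lower in FL (−12.38, −8.67 and −11.98; SD, n = 3). The difference, MC minus FL, was 0.158 points (exact permutation test, two-sided, p = 0.9). A test of 3 against 3 libraries cannot give a p below 0.1. The sign of so small a difference turned without MC library 3 (−0.406), FL library 1 (−0.527) or FL library 3 (−0.327).

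Measured in bases, MC-alone peaks held 64.0, 65.1 and 73.1 kb of ATAC peaks per Mb in MC and 56.1, 77.5 and 62.5 kb per Mb in FL. On a log2 scale relative to shared peaks this was −0.42, −0.53 and −0.37 in MC and −0.46, −0.30 and −0.40 in FL. The difference of means was −0.06 (exact permutation test, two-sided, p = 0.5), and it was positive with distal peaks alone (0.02), with members at 2 times the threshold (0.07) and with widths of 2 to 6 kb (0.11), at p = 1, 0.8 and 0.2 by the exact test.

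Set against FL-alone peaks, as an alternative added after the data were seen, members were more open in every list. FL-alone peaks were open in 15.6%, 10.1% and 13.2% for MC and 20.6%, 26.2% and 16.2% for FL. The log2 ratio of ATAC bases in MC-alone over FL-alone peaks was 1.9, 2.41 and 2.28 in MC and 1.45, 1.5 and 1.65 in FL. The groups did not overlap, and the difference of 0.66 had an exact permutation p of 0.1, the smallest this design allows. Among distal peaks the difference was 0.70, with the same p. FL-alone peaks themselves differed between the tissues: their log2 cover relative to shared peaks was −2.63 ± 0.31 (SD, n = 3) in the MC lists and −1.92 ± 0.124 (SD, n = 3) in the FL lists. That is a difference of −0.718, against −0.0566 for members relative to shared peaks. The 0.66 thus comes from the FL-alone reference, which the same H3K27ac lists chose, and shows no greater openness of members in MC.

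**Figure D4:**
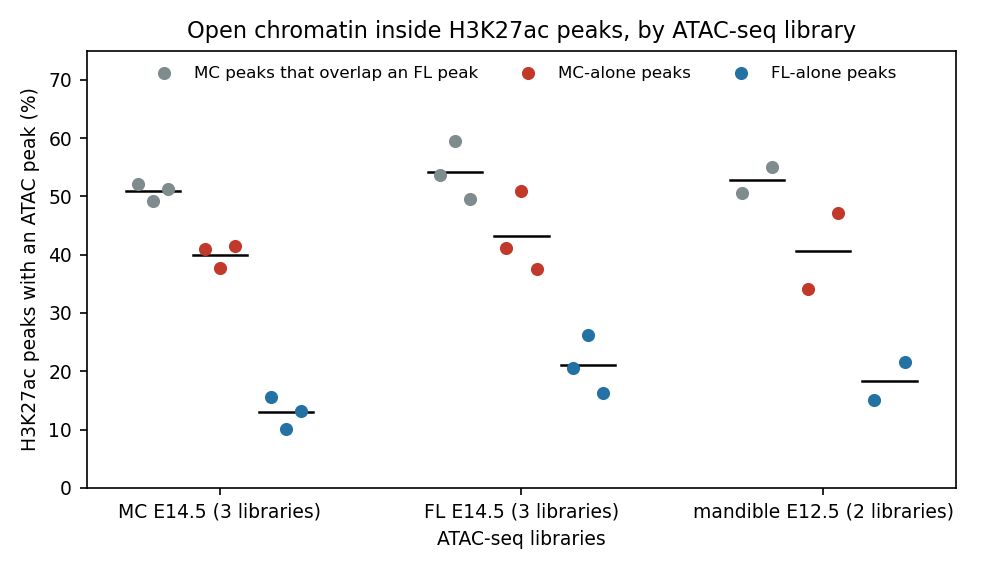
Share of H3K27ac peaks (%) with at least 1 ATAC peak in each ATAC-seq library: shared MC peaks in grey, MC-alone peaks in red, FL-alone peaks in blue; each point is 1 library and lines are means. The red points of MC (37.7% to 41.5%) lie within the range of those of FL (37.6% to 50.9%), and the blue points lie below both other classes in every library.

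The mandible at E12.5 gave 2 lists that disagreed: MC-alone peaks were open in 34.2% and 47.1%, with log2 cover relative to shared peaks of −0.97 and −0.21. The first list covered 85.6 Mb and the other 48.2 Mb, and the 6 E14.5 lists 40.7 to 53.0 Mb. E14.5 MC minus E12.5 mandible was 0.151 (exact permutation test of 3 against 2, two-sided, p = 0.8, smallest possible 0.1) and −0.22 without the first E12.5 list. In both E12.5 lists 767 members (26.7%) were open, and 12 (0.417%) were open in both while closed in all 6 E14.5 lists.

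Over the 6 E14.5 lists, 1000 members (34.8%) had an ATAC peak in none, against 27.2% of shared peaks, and 680 (23.6%) had one in all 6, against 36.2%. Members open in all 3 MC and no FL list numbered 16 (0.556%), against 0.368% of all MC peaks. Those open in all 3 FL and no MC list numbered 33 (1.15%), against 1.14%. Both shares are near the background. The strongest of the 16 lay in the domain of Usp24, 363 kb from the nearest gene end (chr4:105940370-105953148; total signal 75474), with 0.529, 1.15 and 0.607 kb of ATAC peaks in the MC lists. Others lay in the domains of Pde7b, Sulf1, Samd5 and Auts2.

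Per peak, limma on log2 ATAC cover (kb plus 0.1) was run over 28944 MC peaks with a mean cover of at least 0.1 kb, of which 1656 were members. Of these, 44 (2.66%) passed an adjusted p of 0.05, against 2.34% of all peaks tested. Higher in MC were 14 (0.845%, against 0.567%) and higher in FL were 30 (1.81%, against 1.78%). The median log2 difference, MC minus FL, was −0.08 in members and −0.07 over all tested. Every one of the 44 was open in all 3 lists of one tissue and none of the other. With a pseudocount of 0.5 kb no peak passed (2579 of all peaks had an unadjusted p under 0.05), and without MC library 3, FL library 1 or FL library 3 the peaks that passed rose from 678 to 1031, 1069 and 1251. Of the 10 strongest members open in MC lists alone, 9 passed, but they were picked by the same ATAC lists, so this is no separate evidence. With 1 tissue at 0 in all lists, the size and error of such a difference are set by the pseudocount, so none is given. The one in Samd5 had 1.20, 1.25 and 1.37 kb of scaled cover in MC and 0 in each FL list.

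The regions at jaw regulators were open in both tissues. The peak over Msx1 held 2.46, 3.65 and 2.62 kb of ATAC peaks in the MC lists, 1.1, 3.09 and 3.4 kb in the FL lists and 2.98 and 4.84 kb at E12.5. The peak over the Meis2 start held 3.33, 5.68 and 3.61 kb (MC lists), 3.54, 2.37 and 3.11 kb (FL lists) and 3.81 and 4.02 kb at E12.5. MC and FL overlap at both. The peak over Msx2 held 1.27, 2.07 and 2.15 kb (MC lists), 1.31, 2.12 and 0.455 kb (FL lists) and 2.26 and 3.53 kb at E12.5, again with overlap. By limma none of the 3 passed: the log2 difference was 0.23 (SE 0.448, adjusted p = 0.898) at Msx1, 0.35 (SE 0.354, adjusted p = 0.747) at Meis2 and 0.56 (SE 0.537, adjusted p = 0.736) at Msx2.

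Members were also counted by gene. Of the 13 at Meis2, 6, 4 and 5 were open in MC, 5, 4 and 4 in FL, and 1 and 6 at E12.5. Of the 7 at Meis1, 3, 2 and 4 were open in MC, 2 in each FL list, and 1 and 4 at E12.5. Of the 8 at Sox5, 1, 1 and 0 were open in MC, 3 in each FL list, and none at E12.5. At Sox5 every FL count was above every MC count. Of the 5 at Bmpr1b, 2, 1 and 1 were open in MC, 3, 2 and 3 in FL and none at E12.5, so the tissues met at 2. At Dlx1, whose domain shares 1 member with that of Dlx2, both members were open in all 8 lists, with 7.85, 5.74 and 9.17 kb (MC lists), 2.16, 6.46 and 3.38 kb (FL lists) and 10.1 and 7.54 kb at E12.5. The 2 at Pitx1 held 2.38, 3.23 and 5.61 kb (MC lists) and 0.671, 1.55 and 0.596 kb (FL lists), with 9.37 and 4.31 kb at E12.5, so that MC and FL did not overlap there. Both genes were picked here for their values. By limma the peak over Pitx1 (chr13:55822308-55835044) differed by 1.74 (SE 0.397, adjusted p = 0.2) and the peak over Dlx1 (chr2:71522587-71535657) by 0.92 (SE 0.264, adjusted p = 0.412), so neither passed.

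Openness went with start sites. MC-alone peaks with a listed start held a peak of the combined MC ATAC list in 78.6% of 537 cases, and one of the combined FL list in 82.1%. Without a start the shares were 25.2% and 29.0% of 2340. Shared peaks without a start were open in 29.5% and 35.7%, and FL-alone peaks without a start in 6.77% and 14.9%. FL-alone peaks with a start were open in 20.1% and 30.3% of 653. ATAC peaks inside members ranked near the middle of their list by score (median percentile 52.1 in MC and 52.9 in FL), and those in FL-alone peaks lower (34.2 and 35.8). Where a member was open in the MC list, the point of its highest H3K27ac signal fell in an ATAC peak in 70.8% of cases, against 74.8% in shared peaks.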

How the data were processed

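The authors' processing is known only in part. Per the submitters' processing notes, reads were trimmed with Trim Galore, aligned with Bowtie2 to mm10 and handled with SAMtools, with peaks from Genrich (ATAC) and SEACR (CUT&Tag). Versions, read depths and how replicates were pooled into the combined lists are not given in the sources used here. The deposited H3K27ac lists give each peak's total and highest signal. The deposited ATAC lists give each peak's score and its −log10 p. Depth is unknown, so no counting interval is given, and the number of libraries limits the precision. For the E12.5 libraries titles and protocols were followed where 1 description differed from them.

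Peaks on the autosomes and X were intersected (1 bp). Genes are RefSeq protein-coding genes of GRCm38.p6. Library comparisons used exact permutation tests, and single peaks limma 3.58.1 with Benjamini-Hochberg adjustment on ATAC cover scaled to the same total per list. Scripts were tested on simulated data. Named regions were the 10 strongest, 10 widest, 10 largest clusters and 10 strongest open in MC lists alone. Named genes were the 20 with most member bases, the 10 with most members and leading genes of 24 lists. The members and lists were chosen with earlier results of these data known. Alternatives were another reference, number of ATAC peaks, threshold, distance, width, pseudocount, filter and each library left out. Hi-C, 4C and mutant samples were not analysed here. Some genes that the naming rule selects are not reported here.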

Additional observations from a re-analysis of the deposited data

How the results depend on the processing

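No peak-level error exists for the membership itself, since it rests on 2 combined lists. Without the threshold there were 11146 MC peaks free of FL overlap, at 2 times the threshold 244, with an FL peak required to cover 0.5 of the MC peak 4807, and with FL peaks within 5 kb counted as overlap 1646. Clusters of 3 or more held 64 members when joined over a shorter distance, 170 within 100 kb and 280 with FL peaks allowed between. The share near a gene end and the number of genes with a member stayed within 1.5 times. The log2 ATAC cover of members relative to shared peaks, MC minus FL, turned positive with distal peaks (0.0226) and with members at 2 times the threshold (0.0682). It was also positive with widths of 2 to 6 kb (0.106), and leaving out 1 library gave −0.0934 to −0.0128. With FL-alone peaks as an added reference it was 0.661, which comes from that reference (−0.718 relative to shared peaks). The percentage difference ran from −0.527 to 1.33 without 1 library, and E14.5 against E12.5 from −0.224 to 0.526. The peaks that passed limma fell from 678 to 385 with the E12.5 libraries in the fit and to 0 with a pseudocount of 0.5 kb, and leaving out 1 library gave 865 to 1251; the cause was not tested. Same-numbered MC and FL libraries share only a number: their deviations correlated at 0.039, 0.041 and 0.05, each the highest of its library, which is a hint from the data only. With the replicate block the cover difference was −0.0566 and the percentage difference 0.158 (exact sign-flip p = 1 for both, smallest possible 0.25), and limma called 0 peaks, with 1905 at an unadjusted p under 0.05.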
